A study of Mus musculus with 2 samples.

Results

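The nuclei described here were 135 of 13366 nuclei from fetal mouse brain that were picked by the transcripts of Cajal-Retzius neurons. A nucleus was taken when it had at least 3 UMIs (unique molecular identifiers, each a counted RNA molecule) of Reln and at least 2 UMIs summed over Trp73, Ndnf, Cacna2d2, Lhx1, Lhx5 and Calb2. It also had to have no UMI of Dlx6os1, Gata2, Gata3 or Tfap2d, which mark inhibitory and midbrain neurons. Nuclei with fewer than 500 detected genes, or with over 5% of UMIs from mitochondrial genes, were left out beforehand. Of the nuclei that passed those 2 filters, 58 of 6686 in the wildtype library and 77 of 6680 in the library labelled Cav1 knockout (KO) met the rule. The rule used measured counts, so the levels of its 11 genes are a description of the choice and not a result.

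The study compared whole brain of wildtype and Cav1 knockout mice, Cav1 being the main structural protein of caveolae, small pits of the plasma membrane. The age is given only as fetal, and the knockout allele, the strain and the number of brains behind each library are not given in the sources used here. Nuclei were isolated from frozen tissue and made into 3′ libraries, with 1 library per genotype. There are therefore no replicates, no test was made, and each interval below is a 95% interval for counting error alone, which does not cover the spread between animals or between library preparations. UMIs of Cav1 did not separate the libraries, with 70 in the other nuclei of the wildtype library and 78 in those of the library labelled knockout, and with 1 and 2 UMIs in the chosen nuclei. The part of the gene that was deleted is not described, so a 3′ count may lie outside it and checks nothing, and the libraries are called wildtype-labelled and knockout-labelled. The wildtype-labelled library held 9763 barcodes with 19048835 UMIs and the knockout-labelled library 10811 barcodes with 22504908 UMIs. The libraries shared 43 barcodes, of which 0 were among the chosen nuclei.

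Cajal-Retzius neurons are among the earliest-born neurons of the cerebral cortex. They arise at the borders of the pallium, among them the cortical hem and the septum, spread below the pia through the marginal zone and secrete reelin, the glycoprotein encoded by Reln. Reelin binds the receptors Vldlr and Lrp8 on migrating cortical neurons, which pass the signal on through the adaptor Dab1, and so guides how those neurons form layers. Trp73, a transcription factor of the p53 family, is needed for their survival, and most of them die after birth. Reln is also made by other neurons of the fetal brain, among them cerebellar granule cells and some inhibitory neurons, so a brain-wide choice by Reln can take in more than this cell type.

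Reln was required in every chosen nucleus, and Trp73 is the marker of the rule that other nuclei carried least. The sequences around their starts are shown so that these genes can be seen. In GRCm39, Reln (ENSMUSG00000042453) spans chr5:22089452-22549700 on the minus strand and Trp73 (ENSMUSG00000029026) spans chr4:154140706-154224665 on the minus strand. The RefSeq promoter table uses the older build GRCm38.p6 and covers 250 bases before to 50 bases after an annotated start. It gives chr5:22344656-22344955 for Reln, and chr4:154097124-154097423 and chr4:154139826-154140125 for 2 starts of Trp73, all read 5′ to 3′ on the minus strand. Capitals mark CANNTG, the E-box motif, which reads the same on both strands.
Reln start: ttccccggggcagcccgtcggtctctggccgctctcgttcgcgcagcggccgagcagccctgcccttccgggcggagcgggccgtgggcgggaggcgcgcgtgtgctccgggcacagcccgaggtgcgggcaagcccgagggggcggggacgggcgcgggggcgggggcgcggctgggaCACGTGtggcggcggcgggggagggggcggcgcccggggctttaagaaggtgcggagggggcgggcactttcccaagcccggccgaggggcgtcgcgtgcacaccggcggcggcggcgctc
Trp73 start, lower coordinate: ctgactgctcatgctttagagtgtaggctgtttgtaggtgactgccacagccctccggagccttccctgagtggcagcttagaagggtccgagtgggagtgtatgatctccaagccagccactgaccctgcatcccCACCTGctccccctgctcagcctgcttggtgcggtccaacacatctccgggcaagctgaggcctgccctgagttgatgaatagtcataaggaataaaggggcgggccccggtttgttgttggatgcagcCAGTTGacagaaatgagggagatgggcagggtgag
Trp73 start, higher coordinate: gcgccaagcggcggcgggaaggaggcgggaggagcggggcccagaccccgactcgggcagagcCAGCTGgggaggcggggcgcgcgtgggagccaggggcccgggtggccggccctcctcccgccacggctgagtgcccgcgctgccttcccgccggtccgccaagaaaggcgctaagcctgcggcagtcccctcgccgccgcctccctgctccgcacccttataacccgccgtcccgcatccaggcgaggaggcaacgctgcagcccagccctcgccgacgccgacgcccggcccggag
The 3 windows held 1, 2 and 1 match. The motif was in 72.3% of the 32544 promoters of the table, so a match is a description of these letters only. Counts from the 3′ end of transcripts do not tell which of the Trp73 starts was used.

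In the chosen nuclei, Reln ranged from 3 to 84 UMIs per nucleus with a median of 16.5 in the wildtype-labelled library, and from 3 to 205 with a median of 10 in the knockout-labelled library. Both libraries held nuclei at the threshold and nuclei far above it. At exactly 3 Reln UMIs there were 8 and 17 chosen nuclei, and at least 20 Reln UMIs were found in 26 and 33. Just outside the threshold, 3 and 18 nuclei met the marker sum with 2 Reln UMIs. Another 39 and 35 nuclei met the Reln minimum with a marker sum of 1, and 36 and 57 met both minimums but had a UMI of an excluded gene. Together the chosen nuclei held 38.8% and 44.9% of all Reln UMIs of the nuclei that passed the filters, and 51.9% and 72.7% of the 158 and 139 Trp73 UMIs. The remaining Reln UMIs were spread over other nuclei, of which 12.8% and 15.1% had at least 1.

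**Figure D1:**
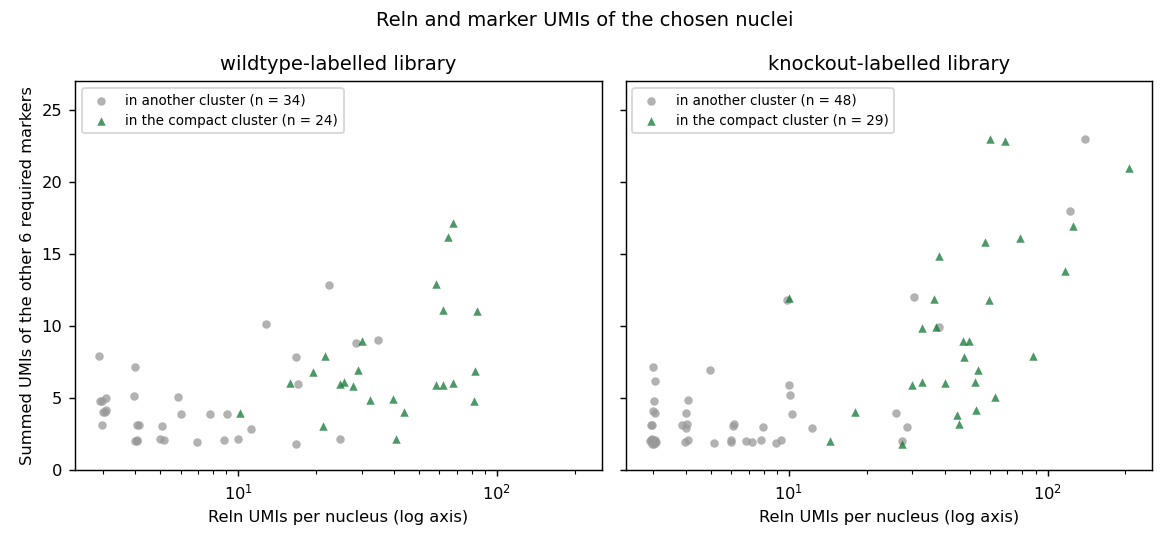
Reln UMIs per nucleus (horizontal, log scale) against the summed UMIs of the 6 other markers (vertical) in the chosen nuclei, 1 point per nucleus moved slightly at random so that points do not hide each other, with the wildtype-labelled and knockout-labelled libraries in separate panels and nuclei of the compact cluster marked apart from the rest. The nuclei of the compact cluster lie at 10 Reln UMIs or more, while most others lie near the threshold of 3.

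The label was then set beside genes that the rule did not use. All nuclei were grouped by expression with the 11 genes of the rule left out, and 53 of the 135 chosen nuclei, 24 wildtype-labelled and 29 knockout-labelled, fell into 1 compact cluster of 57 nuclei. The 10 genes that led this cluster were Gm10475, Elapor1, Gm18294, Thsd7b, Lncpint, Ccbe1, Nhlh2, Clstn2, 4921534H16Rik and Ppp2r2c. Of 22 genes linked with Cajal-Retzius neurons that the rule did not use, 12 were at least 2-fold above all other nuclei in it. It was 1 of 14 pallial neuron factors, 0 of 15 forebrain inhibitory neuron genes, 3 of 13 cortical hem genes and 4 of 17 ion channel genes. The share over all genes is not given for these counts. With at least 20 observed or expected UMIs in each library, 6 of the 22 could be counted in the chosen nuclei of this cluster. Of these 4 were higher and 1 lower, where 13.1% of all genes were higher and 13.1% lower. The list was drawn up with earlier results of these data known and includes Lhx1os, which lies over Lhx1, so its counts are a description. That list was not particular to this cluster, since 9 of 22 were past 2-fold in a cluster of 2 chosen nuclei led by D130079A08Rik and 7 of 22 in one of 4 led by Ebf2. Of the 7 markers of the rule 6 were past 2-fold, which the choice of nuclei fixes. These 53 nuclei are called Cajal-Retzius-like, as a name for the set. Because Gm10475 lies over Reln and a few other genes lie over genes of the rule, the grouping was repeated without such overlapping genes, and 51 of the 53 remained together in a cluster of 87 nuclei. The cluster also followed the Leiden resolution, the setting for how finely nuclei are grouped, which was 1 here. At 0.5 the cluster with the most chosen nuclei held 178 nuclei, 59 of them chosen, and at 2 it held 57, with 53 chosen.

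The other 82 chosen nuclei were spread over 15 clusters, and as a set they are not given the cell type name. They were mixed, with Trp73 in 10 of 34 and 11 of 48. The deepest, a knockout-labelled nucleus of 20277 UMIs, had 121 UMIs of Reln, 4 of Trp73 and 9 of Tmem163. Thsd7b and Tmem163, outside the rule, stood above other nuclei in this set too, as given below. The most frequent of the 15 clusters, led by Snhg11 and Gm28905, held 31 of the 82, with 6 from the wildtype-labelled and 25 from the knockout-labelled library. The whole cluster, of 764 and 1257 nuclei and so mostly not chosen, had 3 of 7 rule markers at least 2-fold above other nuclei. So were 3 of 22 other Cajal-Retzius genes, 8 of 15 GABA and glycine signalling genes and 6 of 16 genes of glutamatergic transmission. The same held for 5 of 17 ion channel genes, 3 of 6 hypothalamic genes and 0 of 15 forebrain inhibitory genes. The share over all genes is not given for these counts, so no cell type is read from them. Another cluster, led by Otx2os1 and Pax7, which are known from the midbrain, held 11, with 9 and 2 from the libraries, and none of them had a UMI of Trp73. Another, led by Gm3550 and 8030451A03Rik with the cell division genes Kif23, Kif4 and Knl1 among its first 10, held 9. In that whole cluster, however, 0 of 7 genes of dividing cells were at least 2-fold above other nuclei, against 7 of 7 in the cluster led by Knl1. It is therefore not named a dividing cluster. The cluster led by Slit3 held 6, of which 5 had a UMI of Trp73, and the rest lay in clusters with 4 or fewer. These 82 are called the dispersed nuclei. The 4 nuclei of the compact cluster that the rule missed had 8 to 36 Reln UMIs, and 3 of them had a marker sum of 0 or 1.

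**Figure D2:**
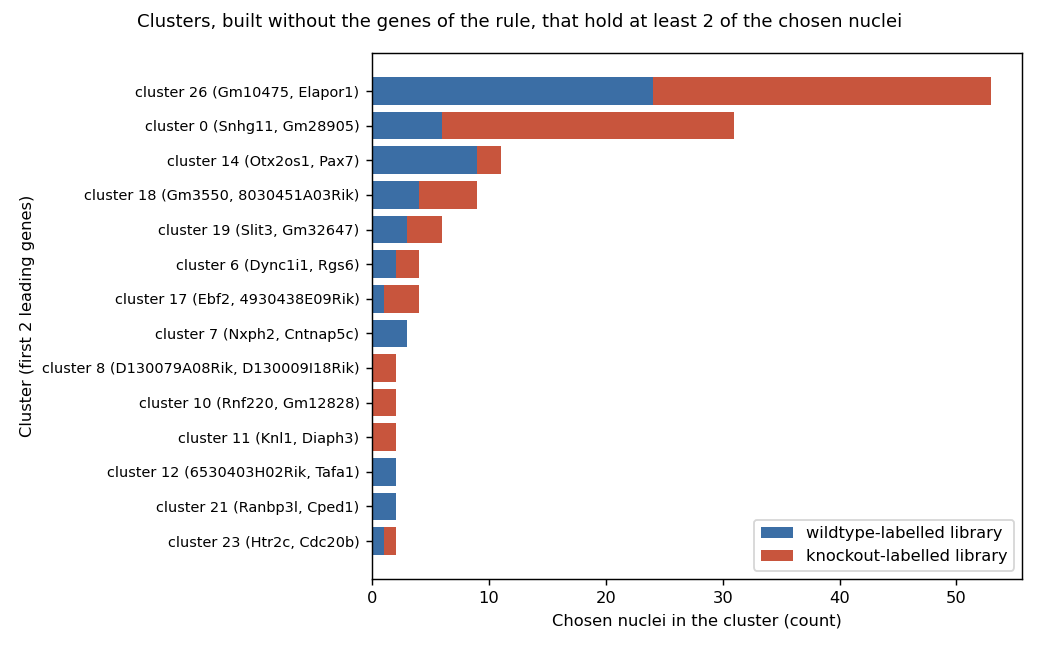
Number of chosen nuclei (horizontal) in each cluster that held at least 2 (vertical, named by its number and its first 2 leading genes), stacked by library. The compact cluster holds 53, with 24 and 29 from the libraries, and the cluster led by Snhg11 holds 31, of which 25 are from the knockout-labelled library.

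The Cajal-Retzius-like nuclei carried more Reln than the dispersed nuclei. Reln had a median of 40 UMIs per nucleus in the wildtype-labelled (10 to 84) and 47 in the knockout-labelled (10 to 205) Cajal-Retzius-like nuclei. The medians in the dispersed nuclei were 5 (3 to 35) and 4.5 (3 to 142). As CPM, the UMIs of a gene summed over nuclei and scaled to 1000000 UMIs of all genes, Reln was at 13312 and 14453 in the Cajal-Retzius-like nuclei, at 1663 and 2113 in the dispersed nuclei and at 128 and 143 in all other nuclei. The ranges per nucleus overlapped, and the highest dispersed values, 121 and 142 UMIs, came from knockout-labelled nuclei in clusters led by Rnf220 and by Knl1. All 25 chosen nuclei with exactly 3 Reln UMIs were dispersed.

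Trp73 was found in 23 of 24 and 27 of 29 Cajal-Retzius-like nuclei, at 700 and 584.5 CPM. It was found in 10 of 34 and 11 of 48 dispersed nuclei, at 140 and 118 CPM, and in 0.679% and 0.424% of other nuclei. Ndnf, which encodes a secreted protein of marginal-zone neurons, was in 14 of 24 and 14 of 29 Cajal-Retzius-like nuclei at 462 and 691 CPM. Cacna2d2, an auxiliary subunit of calcium channels, was in 18 of 24 and 28 of 29. It was also in 26 of 34 and 32 of 48 dispersed nuclei, and in 9.99% and 14.2% of other nuclei. The LIM homeobox gene Lhx1 had similar levels in the dispersed nuclei, at 265 and 171 CPM, and in the Cajal-Retzius-like nuclei, at 212 and 283 CPM. Lhx5 stood at 150 and 221 CPM in the Cajal-Retzius-like and 32.4 and 57.1 CPM in the dispersed nuclei. Calb2, the calcium-binding protein calretinin often used to stain these neurons, had only 3 and 6 UMIs in the Cajal-Retzius-like nuclei. Among the dispersed nuclei, 8 and 3 met the marker sum with Cacna2d2 alone and 5 and 5 with Lhx1 alone.

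The chosen nuclei, picked by a minimum of UMIs, were deeper than the rest. Their median was 3451 and 4577 UMIs per nucleus, against 2125.5 and 2350 in other nuclei. The Cajal-Retzius-like nuclei had 3048.5 and 3556 and the dispersed nuclei 4288.5 and 5628.5. A doublet caller, Scrublet, marked 0 and 1 barcode at its own threshold and so did not work. Among the 8% of each library with the highest scores were 0 and 0 Cajal-Retzius-like nuclei, and 2 of 34 (5.88%) and 6 of 48 (12.5%) dispersed nuclei. Of other nuclei it was 6.93% and 7.51%, so these few nuclei do not separate the sets. The part of doublets in the dispersed nuclei was not tested.

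Free RNA was gauged in a cluster that carried 6 of 6 microglial markers, a cell type that should lack these genes. Reln was found in 5 of 25 (20%) and 1 of 16 (6.25%) of its nuclei, which had medians of 2854 and 2456 UMIs. The highest such value was 7 Reln UMIs, above the minimum of 3 and below the lowest Cajal-Retzius-like value of 10. Trp73 was in 0 of 25 nuclei, which allows a share of up to 12%, and in 0 of 16, which allows up to 18.75%. Cacna2d2 was in 8% and 31.2% of the microglial nuclei.

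Of 3382 genes outside the rule with at least 20 observed or expected UMIs in the chosen nuclei of each library, 84 (2.48%) were at least 2-fold higher than in other nuclei in both libraries and 21 (0.621%) were at least 2-fold lower. In the Cajal-Retzius-like nuclei alone, 111 of 846 genes (13.1%) were higher and 111 (13.1%) lower. In the dispersed nuclei, 14 of 2287 (0.612%) were higher and 26 (1.14%) lower. Without the 1 nucleus of each library with the most UMIs of a gene, 60 of the 84 genes, 92 of the 111 higher in the Cajal-Retzius-like nuclei and 6 of the 14 higher in the dispersed nuclei were still past 2-fold. Of the 84 genes, 60 could be counted in the Cajal-Retzius-like nuclei and all 60 were past 2-fold there. For the dispersed nuclei 48 could be counted and 11 were past 2-fold. The 84 were called with the Cajal-Retzius-like nuclei included, and their cluster was built from the same counts. A gene of low level elsewhere also meets the UMI minimum in so small a set only if it is high there. The 60 of 60 was thus nearly fixed by these choices, and its contrast with the dispersed nuclei is a description.

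The gene farthest above other nuclei was Gm10475, a long noncoding RNA of 5:22115904-22159012 on the plus strand, which lies inside Reln on the opposite strand. It had 125 and 222 UMIs in the chosen nuclei, with log2 ratios to other nuclei of 5.17 (4.84 to 5.49) and 4.96 (4.71 to 5.20). Whether the counting used strand is not given in the sources used here, so its reads cannot be told apart from those of Reln. The same holds for Gm27199, which lies over Lhx5 and had log2 ratios of 2.49 and 2.02. Gm18294, an unprocessed pseudogene on chromosome 3, had 22 and 25 UMIs and log2 ratios of 4.65 and 3.75, and its reads may belong to a near-identical gene.

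Among protein-coding genes, Elapor1, a transmembrane protein of endosomes and lysosomes at 3:108362997-108443962, stood highest. It had 260 and 175 CPM against 19.4 and 23.3 in other nuclei, with log2 ratios of 3.74 (3.35 to 4.12) and 2.91 (2.53 to 3.27). In the Cajal-Retzius-like nuclei it reached 700 and 443 CPM and in the dispersed nuclei 70.2 and 73.9. The dispersed value in the wildtype-labelled library rested on 1 nucleus, with 8 of its 13 UMIs. Thsd7b, a thrombospondin-repeat membrane protein at 1:129201039-130147015, had 167 and 293 UMIs, with log2 ratios of 2.90 (2.66 to 3.13) and 2.56 (2.38 to 2.74). In the dispersed nuclei its log2 ratios were 1.74 and 1.78, so both sets stood above other nuclei. Tmem163, a zinc transporter of vesicles, showed the same order, with log2 ratios of 3.38 and 3.21 in the Cajal-Retzius-like and 1.49 and 1.22 in the dispersed nuclei.

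Several others stood high chiefly in the compact cluster. Mical2, an enzyme that oxidises actin filaments, had log2 ratios of 3.71 and 4.05 in the Cajal-Retzius-like nuclei on 14 and 24 UMIs. Unc5b, a netrin receptor, had 3.58 and 3.83 there, against 1.15 and 0.96 in the dispersed nuclei with intervals that included 0. Ccbe1, a secreted protein known from the growth of lymphatic vessels, had 30 and 34 UMIs there, and log2 ratios of 0.59 and −0.48 in the dispersed nuclei. Clstn2, a synaptic calsyntenin, was abundant, with 227 and 314 UMIs in the Cajal-Retzius-like nuclei and log2 ratios of 3.40 and 3.37. The antisense RNA 4921534H16Rik lies over Clstn2 and had log2 ratios of 2.18 and 2.02 over all chosen nuclei.

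The transcription factors among the 20 were Dach1, with log2 ratios of 2.01 (1.84 to 2.17) and 1.98 (1.85 to 2.11), and Emx2, a homeobox factor of the dorsal telencephalon, with 1.98 (1.33 to 2.56) and 2.20 (1.66 to 2.70). Rspo3, a secreted amplifier of Wnt signalling that is made in the cortical hem, had 97 and 104 UMIs and log2 ratios of 2.27 and 1.95. Lncpint, a long noncoding RNA known as a p53 target, had 20 and 40 UMIs and log2 ratios of 3.73 and 3.59. Ppp2r2c, a subunit of protein phosphatase 2A, had 2.86 and 2.12, Cobll1 2.28 and 1.90, the transporter Slc22a15 2.22 and 1.86, and the long noncoding RNA 9130015G15Rik 2.57 and 1.81. Pde1a, a calmodulin-dependent phosphodiesterase, had 3.36 and 2.14, but 29 of its 128 wildtype-labelled UMIs came from 1 dispersed nucleus.

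**Figure D3:**
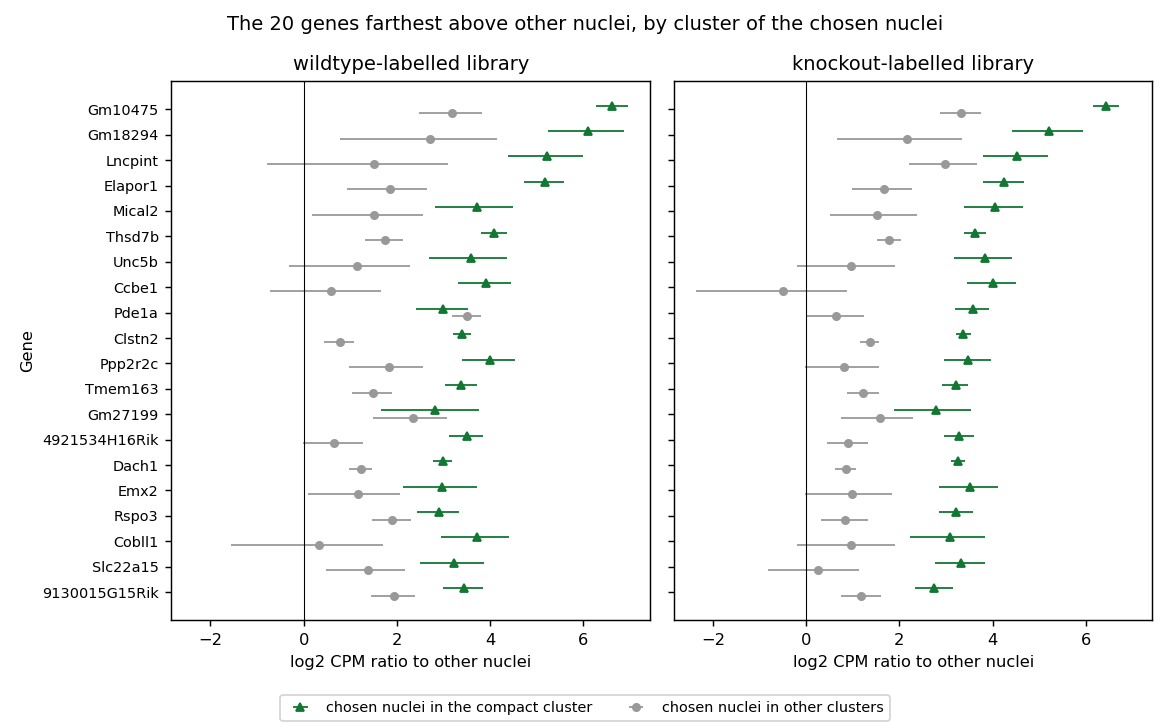
Log2 CPM ratio to other nuclei (horizontal) for the 20 genes outside the rule that stood farthest above them (vertical), with the 2 libraries in separate panels, the Cajal-Retzius-like nuclei of the compact cluster as triangles, the dispersed nuclei as circles, and lines for the 95% counting interval. For every gene but Pde1a in the wildtype-labelled library, where the values are 3.00 and 3.49, the triangle lies to the right of the circle.

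The 10 lowest genes over all chosen nuclei included Sox1ot, Sox2ot, Slc1a3, Htr2c and Ttr. Sox1ot and Sox2ot, transcripts that overlap neural progenitor genes, had log2 ratios of −2.99 and −1.91, and of −2.04 and −1.58. Slc1a3, the glial glutamate transporter, had 41.5 and 48.7 CPM against 124 and 131 in other nuclei. Htr2c, a serotonin receptor abundant in choroid plexus, had 3 and 10 UMIs and log2 ratios of −2.91 and −1.74, and Ttr, the transthyretin of choroid plexus, had −1.38 and −1.26. The BMP receptor Bmpr1b had −2.05 and −1.78. The other 4 of the 10 lowest were Prex1, Etv6, Prkd1 and Gab1, with log2 ratios between −1.82 and −1.20. The Cajal-Retzius-like nuclei had 0 and 1 UMI of Slc1a3, and the dispersed nuclei had 11 and 19.

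In the Cajal-Retzius-like nuclei the lowest genes were others, and the dispersed nuclei did not share these low levels. Tenm3, a teneurin of synaptic and axonal matching, had 1 and 5 UMIs in the Cajal-Retzius-like nuclei, at 12.5 and 44.3 CPM against 919 and 778 in other nuclei. In the dispersed nuclei it had 277 and 397 UMIs, and its log2 ratios were 0.70 and 0.78. Pcdh9, a protocadherin, showed the same split, with log2 ratios of −3.50 and −3.39 in the Cajal-Retzius-like and 0.25 and 0.36 in the dispersed nuclei. Over all chosen nuclei Pcdh9 stood at −0.22 and −0.07, so the pooled value described neither set. Adarb2 had 2 and 2 UMIs, Foxp2 2 and 0, Grm5 2 and 0, Gpc6 5 and 3, and the netrin receptor Unc5d 0 and 4. In the dispersed nuclei these 5 genes had 62 to 134 UMIs each in the wildtype-labelled and 109 to 218 in the knockout-labelled library, with 42 of the 78 wildtype-labelled Foxp2 UMIs in 1 nucleus. The homeobox factor Meis2 had 14 and 13 UMIs, at 175 and 115 CPM.

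Several genes linked with Cajal-Retzius neurons that the rule did not use stood high. Of the 22 on that list, 12 had enough UMIs over all chosen nuclei. Of these, 7 were at least 2-fold higher in both libraries and 0 lower, where 2.48% of all genes were higher and 0.621% lower. Their medians were 1.27 and 1.02 (log2), against medians of 0.01 and −0.04 over all 3382 genes. The list was drawn up with earlier results of these data known, so the count is a description. Ebf3, a transcription factor of the COE family, had 147 and 180 UMIs and log2 ratios of 2.42 (2.17 to 2.66) and 1.30 (1.08 to 1.52). In the dispersed nuclei it had 2.28 and 1.04, and 1.65 and 0.64 without its highest nucleus in each library, which held 36 of 93 and 30 of 109 UMIs. The other 6 were Nr2f2, Tbr1, Emx2, Car10, Tmem163 and Lhx1os, of which the last lies over Lhx1. Tbr1, a T-box factor of early cortical neurons, had 24 and 25 UMIs and log2 ratios of 1.28 and 1.02. Nr2f2, a nuclear receptor, had 1.02 and 1.09. Without their highest nucleus in each library, Nr2f2 (0.91 and 0.97), Tbr1 (1.12 and 0.92) and Lhx1os (2.84 and 0.85) were under 2-fold in at least 1 library.

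Nhlh2, a bHLH factor of newly formed neurons, fell short of the minimum with 18 and 27 UMIs, of which 15 and 23 were in the Cajal-Retzius-like nuclei. Its log2 ratios were 4.66 (3.78 to 5.43) and 4.59 (3.89 to 5.22) there, and 1.12 and 0.66 in the dispersed nuclei with intervals that included 0. The compact cluster alone had 6 genes of the Cajal-Retzius list with enough UMIs, of which 4 were higher, where 13.1% of all genes were higher. The 1 lower gene was Ebf1, with log2 ratios of −2.02 and −2.44, so Ebf1 and Ebf3 stood on opposite sides. Eomes, the T-box factor of intermediate progenitors, had 6 and 0 UMIs in the Cajal-Retzius-like nuclei.

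Every nucleus was also thinned to 1000 UMIs, which removes the difference in depth. The Cajal-Retzius-like nuclei then stayed above other nuclei for Nhlh2, Tmem163, Elapor1 and Ebf3. For Elapor1 and Ebf3 the dispersed nuclei of the knockout-labelled library did not stand above other nuclei. They were 48 nuclei, too few to read a direction from such low shares. At this depth Nhlh2 had a UMI in 20.8% and 17.9% of the Cajal-Retzius-like nuclei, 0% and 2.08% of the dispersed nuclei and 0.571% and 0.801% of other nuclei. Without thinning, the Cajal-Retzius-like shares for Nhlh2 were 45.8% and 37.9%. Tmem163 had thinned shares of 66.7% and 64.3%, against 14.7% and 18.8% in the dispersed and 6.57% and 7.32% in other nuclei. Elapor1 had 45.8% and 39.3%, against 5.88% and 2.08% and against 1.56% and 2.24%. Ebf3 had 41.7% and 53.6% in the Cajal-Retzius-like nuclei, 26.5% and 6.25% in the dispersed and 6.07% and 9.69% in other nuclei. In the microglial nuclei Ebf3 had a UMI in 16% and 31.2% without thinning, against 83.3% and 86.2% in the Cajal-Retzius-like nuclei. The thinning left out 1 knockout-labelled Cajal-Retzius-like nucleus, and 846 and 1110 other nuclei, as too shallow.

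Of 13 cortical hem genes, only Rspo3 had enough UMIs over all chosen nuclei, and it was higher in both libraries, as were 2.48% of all genes. Lmx1a, a hem transcription factor under the UMI minimum, had 8 and 11 UMIs in the Cajal-Retzius-like nuclei with log2 ratios of 2.71 and 2.60. The hem list was neither general in nor particular to the compact cluster, where 3 of 13 were at least 2-fold above other nuclei. It was 11 of 13 in the cluster led by Htr2c and 6 of 13 in the cluster led by Ranbp3l. Of 14 factors of the pallium and of cortical projection neurons, 10 had enough UMIs, with medians of −0.68 and −0.93 (log2). Of these 0 were higher and 2 lower, where 2.48% of all genes were higher and 0.621% lower. Neurod6, a bHLH factor of cortical projection neurons, was 1 of the 2, with log2 ratios of −1.30 and −1.15. In the Cajal-Retzius-like nuclei 4 of the list had enough UMIs, 0 were higher and 3 lower, where 13.1% of all genes were lower. Bcl11b, at −3.05 and −1.68, and Sox5, at −2.27 and −3.18, were lower in the Cajal-Retzius-like nuclei. Bcl11a, by contrast, had log2 ratios of 0.89 and 1.49 there. General neuron genes such as Stmn2 and Snap25 did not set these nuclei apart, with 9 of 9 counted, 0 past 2-fold either way, and medians of 0.04 and 0.01.

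Genes of excitability and transmission were mixed. Of 17 ion channel genes, 11 had enough UMIs and 1 was higher over all chosen nuclei, where 2.48% of all genes were higher. That gene was Cacna2d3, another auxiliary calcium channel subunit, with log2 ratios of 2.11 and 1.65. Cacna2d1 was also higher in the Cajal-Retzius-like nuclei, at 2.04 and 2.11, beside Cacna2d3 at 2.81 and 2.93. Of 16 genes of glutamatergic transmission, 11 had enough UMIs and 0 were past 2-fold either way, with medians of 0.19 and 0.04. Slc17a6, the vesicular glutamate transporter of many fetal neurons, had 1.17 and 0.47 in the Cajal-Retzius-like nuclei. Grik2, a kainate receptor subunit, was lower there at −2.20 and −1.95. Of 15 GABA and glycine signalling genes, 7 had enough UMIs and 1 was higher, Gabrg3, a GABA receptor subunit, at 1.04 and 1.02. It was at 0.33 and 0.78 without its highest nucleus in each library, of which the wildtype-labelled one held 23 of 56 UMIs.

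Forebrain inhibitory genes separated the sets of chosen nuclei. The GABA-synthesis genes Gad1 and Gad2 had 0 and 2 UMIs, and 0 and 1 UMI, in the Cajal-Retzius-like nuclei. Gad1 had 32 and 22 UMIs and Gad2 31 and 48 in the dispersed nuclei. Gad2 stood there at 167 and 161 CPM, against 221 and 199 in other nuclei. The exclusion of Dlx6os1 by the rule acts on the same neurons, so these levels are partly set by the choice. Summed over 15 forebrain inhibitory genes, the Cajal-Retzius-like nuclei had 925 and 381 CPM, the dispersed nuclei 2084 and 1502 and other nuclei 2466 and 2423. Summed over 9 radial glia genes, the chosen nuclei had 362 and 497 CPM against 908 and 922, and over 7 genes of dividing cells 200 and 188 against 330 and 289. Summed endothelial genes were at 49 and 39 CPM against 110 and 169 in other nuclei.

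On the receiving side of reelin signalling, the count over all chosen nuclei was near that of all genes. Of 21 genes of the pathway outside the rule, 11 had enough UMIs and 0 were past 2-fold either way, with medians of −0.11 and −0.07. Of all genes 2.48% were higher and 0.621% lower, so the 0 of 11 is no result about the pathway. Only 4 had enough UMIs in the Cajal-Retzius-like nuclei, and 1 of them was lower, where 13.1% of all genes were lower. The lower gene was Dab1, with 28 and 32 UMIs at 350 and 283 CPM against 791 and 741 in other nuclei. Its log2 ratios were −1.18 (−1.77 to −0.64) and −1.39 (−1.93 to −0.89). The dispersed nuclei had 842 and 826 CPM of Dab1, close to other nuclei. The receptor genes had few UMIs, with 13 and 10 of Vldlr and 29 and 60 of Lrp8 over all chosen nuclei. The log2 ratios of Lrp8 were −0.57 and −0.15.

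Of 27 genes of neuronal migration and guidance, 20 had enough UMIs, 2 were higher and 1 was lower over all chosen nuclei, where 2.48% of all genes were higher and 0.621% lower. Nectin1, an adhesion protein through which Cajal-Retzius neurons contact migrating neurons, had 42 and 57 UMIs and log2 ratios of 1.26 (0.78 to 1.71) and 1.02 (0.61 to 1.40), and 1.20 and 0.87 without its highest nucleus in each library. Sema6a, a transmembrane semaphorin, had 1.40 and 1.17. Both were farther from other nuclei in the Cajal-Retzius-like set, Nectin1 at 2.12 and 1.69 and Sema6a at 2.08 and 1.87. Epha4, an ephrin receptor, was the lower gene at −1.78 and −1.13, and it had 1 and 4 UMIs in the Cajal-Retzius-like nuclei. There 13 of the list had enough UMIs, 2 were higher and 4 lower, where 13.1% of all genes were higher and 13.1% lower, so the share of higher genes was near that of all genes. The other lower genes were Epha5, Plxna2 and Unc5d. Plxnd1, a semaphorin receptor, had only 8 and 13 UMIs there, with log2 ratios of 3.13 and 3.40.

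Among the 10 genes highest in the dispersed nuclei were Pex5l, at 1.83 and 1.45, Agbl4, at 1.23 and 1.41, and Cep112, at 1.39 and 1.29. Agbl4, at 2.50 and 2.12, and Cep112, at 2.45 and 2.35, were higher still in the Cajal-Retzius-like nuclei. Spock3, a testican proteoglycan, had 45 and 78 UMIs in the dispersed nuclei with log2 ratios of 1.36 and 1.09, and 0 and 0 UMIs in the Cajal-Retzius-like nuclei. Its dispersed values were 1.03 and 0.36 without its highest nucleus in each library. Gm32647 likewise had 26 and 119 UMIs in the dispersed and 0 and 0 in the Cajal-Retzius-like nuclei, but 93 of the 119 were in 1 nucleus. Otx2, a factor of the midbrain and choroid plexus, had 33 and 5 UMIs in the dispersed nuclei, so there the libraries differed.

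The share of nuclei that met the rule was 0.867% (0.659% to 1.12%, exact Clopper-Pearson) in the wildtype-labelled and 1.15% (0.911% to 1.44%) in the knockout-labelled library. The difference was 0.285 percentage points with an interval from −0.0557 to 0.631. For the Cajal-Retzius-like nuclei the shares were 0.359% (0.230% to 0.534%) and 0.434% (0.291% to 0.623%), a difference of 0.0752 points (−0.144 to 0.297). The intervals of both differences included 0, and the spread between brains is not known. When every nucleus was thinned to 2000 UMIs, 39 of 3684 (1.06%) and 42 of 4011 (1.05%) nuclei met the rule. At 1000 UMIs it was 24 of 5840 (0.411%) and 25 of 5569 (0.449%).

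Within the chosen nuclei, 141 of 3749 genes with at least 40 UMIs over both libraries (3.76%) lay at least 2-fold apart, of which 105 (2.8%) were higher in the knockout-labelled library and 36 (0.96%) lower. Of those 141 genes, 5 had enough UMIs in the Cajal-Retzius-like nuclei and 2 lay 2-fold apart in the same direction there. Only 3 lay 2-fold apart in the same direction in other nuclei. Among the Cajal-Retzius-like nuclei alone, 17 of 822 genes (2.07%) were higher and 5 (0.608%) lower, and among the dispersed nuclei 91 of 2671 (3.41%) were higher and 54 (2.02%) lower. Reln itself was at a log2 ratio of 0.09 (−0.01 to 0.19) between the libraries over all chosen nuclei and 0.12 (0.01 to 0.23) in the Cajal-Retzius-like nuclei. Of the 1632 knockout-labelled Reln UMIs in the latter, 205 came from 1 nucleus. The rule also chose on this gene, so no difference between the libraries is read from that interval. Trp73 was at −0.26 (−0.80 to 0.28) in the Cajal-Retzius-like nuclei.

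For several of the genes farthest apart between the libraries, a large part of the UMIs lay in clusters that the libraries filled unequally. Meis1, a homeobox factor, had 5 wildtype-labelled UMIs in 5 nuclei and 92 knockout-labelled UMIs in 24 nuclei, a log2 ratio of 3.57 (2.30 to 5.23), and 45 of the 92 were in the cluster led by Snhg11. The Cajal-Retzius-like nuclei had 0 and 3 of its UMIs. The log2 ratio of Brinp3, on 35 and 203 UMIs, was 1.91 (1.38 to 2.47), with 142 of the 203 in the same cluster, and Trhde had 15 and 88, with 66 there. Otx2os1, which lies over Otx2, stood at −3.84 (−5.01 to −2.84) on 83 and 9 UMIs, and 59 of the 83 were in the cluster led by it and Pax7. That cluster gave 9 wildtype-labelled and 2 knockout-labelled nuclei, and the Snhg11 cluster 6 and 25. The part of these cluster counts in the ratios was not tested.

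Single nuclei weighed on several of the others. Without the highest nucleus of each gene in the library where it was higher, 61 of the 105 genes higher in the knockout-labelled library and 10 of the 36 lower ones were still past 2-fold. In the Cajal-Retzius-like nuclei it was 5 of 17 and 1 of 5. Cdc20b, a gene of multiciliated cells, had 0 and 90 UMIs, and 88 of them came from 1 nucleus of the cluster led by Htr2c. Adgrv1 had 8 and 71 UMIs, a log2 ratio of 2.52, and 2.12 without its highest nucleus. The long noncoding RNA 4930445B16Rik had 6 and 50 UMIs, a log2 ratio of 2.43, and 2.12 without its highest nucleus. Rspo2, another amplifier of Wnt signalling, had 42 and 10, a log2 ratio of −2.70, and −1.89 without 1 nucleus that held 19. Slit3, a secreted repellent of axons, had 73 and 41, a log2 ratio of −1.46, and −0.81 without 1 nucleus that held 29. The log2 ratio of 9630028H03Rik was −1.40 over all chosen nuclei, −1.22 without its highest nucleus, and −0.33 in the Cajal-Retzius-like nuclei. Pde1a changed sides, with −1.09 (−1.49 to −0.69) over all chosen nuclei and 0.70 (0.07 to 1.37) in the Cajal-Retzius-like nuclei, where it had 30 and 69 UMIs. Without its highest nucleus these values were −0.74 (−1.16 to −0.31) and 0.56 (−0.09 to 1.25).

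In the Cajal-Retzius-like nuclei, the genes farthest above in the knockout-labelled library were named after their values were seen. Kcnip1, a potassium channel partner, stood at 1.48 (0.70 to 2.34) on 17 and 67 UMIs, and at 1.14 (0.32 to 2.02) without its highest nucleus. Hsp90b1, a chaperone of the endoplasmic reticulum, had 11 and 43 UMIs, 1.47 and 1.35 without its highest nucleus. Chl1, an adhesion protein of axons, had 27 and 80 UMIs, 1.07 and 0.95. In other nuclei the log2 ratios of these genes were 0.18, 0.20 and 0.04. On the lower side, Csmd3 was at −2.01 and Nxph1 at −2.08, but 24 of 37 and 27 of 30 wildtype-labelled UMIs came from 1 nucleus each. Without it Csmd3 was at −0.57 (−1.80 to 0.66), and Nxph1 at 1.08 (−0.88 to 3.58). Erbb4 went from −1.43 to −0.57 (−1.51 to 0.38) in the same way.

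**Figure D4:**
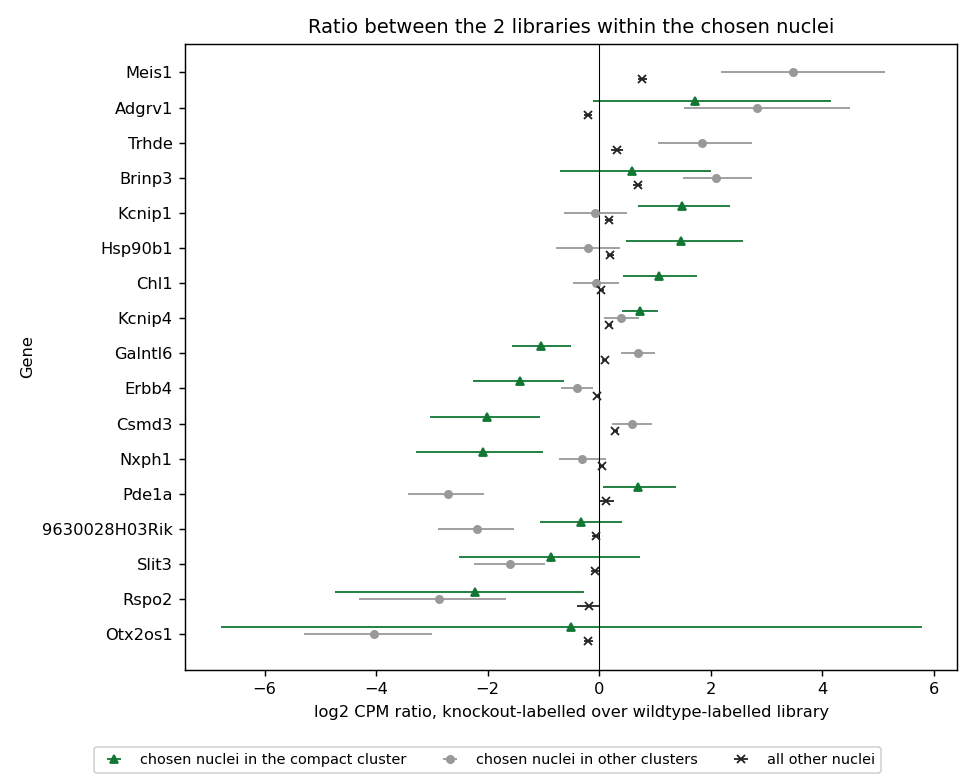
Log2 CPM ratio of the knockout-labelled over the wildtype-labelled library (horizontal) for genes named between the libraries (vertical) in the Cajal-Retzius-like nuclei of the compact cluster (triangles), in the dispersed nuclei (circles) and in all other nuclei (crosses), with lines for the 95% counting interval. Otx2os1 and Meis1 lie far from 0 in the dispersed nuclei, at most genes other nuclei lie near 0, and Pde1a lies on opposite sides of 0 in the compact cluster (0.70) and in the dispersed nuclei (−2.71).

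At the Cav1 locus, the neighbouring gene Cav2 had 0 and 13 UMIs in the chosen nuclei, and Gm15581, a long noncoding RNA that lies over Cav1 and Cav2 on the opposite strand, had 1 and 29. Both differed in the same direction in other nuclei, with 19 and 751 UMIs of Cav2 and 61 and 1805 of Gm15581. Rnf121, with 41 and 22 UMIs in the chosen nuclei, stood at −1.53 (−2.35 to −0.75) there and at −1.63 (−1.74 to −1.53) in other nuclei. The metabolic lists held few counts here. Between the libraries 3 of 17 glycolysis genes had enough UMIs, with Gpi1 higher at 1.61, where 2.8% of all genes were higher. Gpi1 had 7 and 33 UMIs, and 14 of the 33 were in the cluster led by Snhg11. Of 15 insulin and IGF genes 7 had enough UMIs and 0 were past 2-fold. Of 16 caveolae genes, 2 had enough UMIs and 0 were past 2-fold. Of all genes 3.76% lay 2-fold apart, so these counts of 0 are no result about the lists.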

How the data were processed

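Single-nucleus 3′ RNA libraries of whole fetal mouse brain, 1 wildtype and 1 Cav1 knockout, were taken as the deposited raw UMI counts per gene and barcode, with no normalization by the authors. The labels' processing notes name Cell Ranger 3.0.1, STAR and the build GRCm39, while the file headers name Cell Ranger 6.1.1. Whether introns or strand were used in counting is not given in the sources used here. The deposited tables held 55416 features, of which 98.8% matched GENCODE M39 by identifier.

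Nuclei with at least 500 genes and at most 5% mitochondrial UMIs were kept: 6686 wildtype-labelled (median 2133.5 UMIs) and 6680 knockout-labelled (median 2366). UMIs were summed over nuclei and given as CPM. Ratios have exact conditional binomial intervals and shares exact Clopper-Pearson intervals at 95%, for counting error only; a count of 0 was set to 3 counts as a bound. A gene was called at 2-fold, in both libraries for a comparison with other nuclei, with at least 20 observed or expected UMIs per library, or 40 between libraries. Clusters used 2000 variable genes per library (3152 in all), 30 principal components, 15 neighbours and Leiden resolution 1 in scanpy 1.11.5 with leidenalg 0.10.2, without the rule's 11 genes. No doublets were removed.

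The chosen nuclei and the gene lists were picked with earlier results of these data known. Genes named are those of the rule, the 20 highest and 10 lowest against other nuclei, list genes with at least 20 UMIs, and the 6 farthest apart each way between libraries. Genes named within the compact cluster or the dispersed nuclei were chosen after their values were seen. Python 3.11.15, numpy 2.4.6 and scipy 1.17.1 were used, and the calculations were tested on simulated data. Alternatives varied the filters, the rule's minimums, the exclusion genes and the UMI minimums. The values of 1 gene of the lists are not reported here.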

Additional observations from a re-analysis of the deposited data

Results flagged for a closer look

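In 5 genes the chosen nuclei lay above other nuclei in 1 library and below them in the other, with both counting intervals away from 0. The difference between the libraries was not tested. The wildtype-labelled value is given before the knockout-labelled one. Meis1 had log2 ratios of −2.34 and 0.45, and Otx2os1 of 1.22 and −2.42. Slit3 had 0.57 and −0.81, and 30 of its 73 wildtype-labelled UMIs were in 2 nuclei of the cluster led by Slit3. Gria1, a glutamate receptor subunit, had 0.31 and −0.31, and 40 of its 116 wildtype-labelled UMIs were in 3 nuclei of the cluster led by Nxph2. Robo1, the receptor of Slit proteins, had 0.22 and −0.29. In the Cajal-Retzius-like nuclei Robo1 had 112 and 100 UMIs, with log2 ratios of 0.16 (−0.12 to 0.43) and −0.59 (−0.89 to −0.31).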

How the results depend on the processing

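The share of chosen nuclei followed the rule's minimums. In the wildtype-labelled and knockout-labelled libraries it was 0.604% and 0.733% with nuclei of at least 200 genes, 1.13% and 1.497% with 1000 genes, 0.643% and 0.793% with at least 5 Reln UMIs, 1.45% and 1.68% with a marker sum of at least 1, and 1.41% and 2.01% with no exclusion genes. It was 0.808% in the knockout-labelled library with a marker sum of at least 3. In alternatives chosen after seeing the data it was 0.359% and 0.434% for the compact cluster and 0.509% and 0.719% for the dispersed nuclei. The difference in share between the libraries was positive in 11 of the 12 alternatives run, from 0.0752 to 0.600 percentage points, and −0.0115 when nuclei were thinned to 2000 UMIs. This tally of signs is no test, and 2 further settings gave smaller differences. Thinning to 1000 UMIs gave 0.411% (0.263% to 0.611%) and 0.449% (0.291% to 0.662%). For the whole compact cluster, with its nuclei outside the rule, the difference was 0.0453 points (−0.182 to 0.274).

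The 84 genes higher than in other nuclei became 21 with no exclusion genes, 49 with a minimum of 50 UMIs and 14 in the dispersed nuclei. The 21 lower genes became 139 with 200 genes per nucleus, 41 with at least 5 Reln UMIs, 35 with a marker sum of at least 3, 8 with a minimum of 50 UMIs and 111 in the compact cluster. The 105 genes higher in the knockout-labelled library became 65 with at least 5 Reln UMIs, 60 with a marker sum of at least 3, 166 with no exclusion genes, 24 with a minimum of 100 UMIs, 17 in the compact cluster and, in a setting also chosen after seeing the data, 61 without each gene's highest nucleus. The 36 lower genes became 57 with a marker sum of at least 1, 144 with no exclusion genes, 4 with 100 UMIs, 5 in the compact cluster and 10 without each gene's highest nucleus. The sign turned for Htr2c (knockout-labelled, 0.20) and Prex1 (wildtype-labelled, 0.073) with no exclusion genes, for Ccbe1 (knockout-labelled, −0.48) in the dispersed nuclei and for Pde1a between libraries (0.70) in the compact cluster. The cause was not tested.

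No paired analysis was possible because each genotype has 1 library. With 53 Cajal-Retzius-like nuclei and 846 genes counted in them, low transcription factors and receptors were mostly out of reach at this depth.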
